A study of Mus musculus with 2 samples.

Results

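The mitochondrial respiratory chain consists of complexes I to IV, which pass electrons from NADH and succinate to oxygen while all but complex II pump protons, and ATP synthase, often called complex V, which uses the proton gradient to make ATP. Most subunits are encoded in the nucleus, and complexes I, III, IV and V also contain subunits encoded by mitochondrial DNA. Skeletal muscle relies on these complexes, and some subunits of cytochrome c oxidase (complex IV) have forms that are used mainly in heart and skeletal muscle. Nuclear-encoded subunit genes were examined here in WT and Gne-KO C2C12 cells, and were chosen by symbol alone: Nduf a, b, c, s and v genes, Sdha to Sdhd, Uqcr genes, Cyc1, Cox4 to Cox8 genes and Atp5 genes, without the Ndufaf assembly factors. This rule found 85 of the 21829 gene symbols, namely 37 of complex I, 4 of complex II, 9 of complex III, 18 of complex IV and 17 of complex V. Ndufa4, counted under complex I by its symbol, is now known as a subunit of complex IV, and Atp5s (current symbol Dmac2l) is not a subunit of ATP synthase.

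C2C12 is an immortalised mouse myoblast line. The WT library came from unedited C2C12 cells, and the KO library from cells with a CRISPR–Cas9 indel in exon 2 of Gne, the gene of the bifunctional enzyme of sialic acid synthesis. Both lines grew untreated in serum-containing medium, and KO lines were derived from single clones, so that an effect of the edit and a difference of the clone cannot be told apart. There was 1 library per line, and no difference has a replicate check, an error or a p-value. Gne itself was at 6.67 FPKM in WT against 7.34 FPKM in KO, so its RNA level does not check the labels, and the second library is called KO-labelled. Myod1, a defining transcription factor of myoblasts, was 59.97 FPKM in WT and listed at 0 in that library, which goes against its cell type label. Values are called FPKM, that is fragment counts scaled to transcript length and library size, a unit inferred from the deposited values. The study's methods name TPM, a related length-scaled unit, which could not be told apart from FPKM here. The number of fragments per library is unknown. The fold change is log2((KO + 1)/(WT + 1)), given where the mean over the 2 libraries reached 1 FPKM, and a 2-fold difference is a log2 fold change beyond 1. Of the 85 genes, 78 passed this filter. Paired values are given with WT first, and a value in parentheses after them is the log2 fold change.

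Before the values, the promoter sequences of 3 genes are shown, because Ndufb7 and Cox7a1 were the only subunit genes more than 2-fold apart between the libraries and Cox7a2 is the widely used counterpart of Cox7a1. Each run covers the 120 bases before the annotated start, read 5′ to 3′ on the gene's strand from RefSeq on GRCm38.p6. Capitals mark CCGGAAG, the letters of a common ETS factor motif, which was found in Ndufb7 alone among the 3 runs.
Ndufb7, chr8:83566638-83566757, plus strand: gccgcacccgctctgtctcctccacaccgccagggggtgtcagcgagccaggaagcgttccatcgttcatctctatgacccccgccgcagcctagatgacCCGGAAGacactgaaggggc
Cox7a1, chr7:30184051-30184170, plus strand: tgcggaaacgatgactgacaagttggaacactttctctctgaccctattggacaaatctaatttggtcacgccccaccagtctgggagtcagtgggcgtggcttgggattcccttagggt
Cox7a2, chr9:79759854-79759973, minus strand: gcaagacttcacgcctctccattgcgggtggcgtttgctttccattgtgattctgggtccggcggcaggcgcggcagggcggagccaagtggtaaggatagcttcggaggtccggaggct

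Nuclear respiratory factor 1 (NRF1) and the ETS factor GABP (nuclear respiratory factor 2) are known regulators of many respiratory chain genes, and the promoters of the subunit genes were therefore searched for their letters. RefSeq promoter windows of 300 bases, most of them upstream of the start, were found for 68 of the 85 genes, in 73 windows. The NRF1 motif, read as GCGC, any base and TGCGC on either strand, was in 18 of the 73 windows (24.7%), against 4.6% of all 32851 windows. CCGGAAG, on either strand like the other motifs, was in 16 (21.9%), against 8.86% of all windows, and 4 genes (Atp5h, Atp5k, Cox6a1 and Sdhd) had both motifs. AAGATGGCG, the letters of a YY1 motif, was in 7 windows (9.59%), against 1.4% of all. The TATA box letters TATAAA were in 8 windows (11%), against 13.6% of all. The windows of the subunit genes held a median of 19 CpG dinucleotides, against 7 in all windows. A match is a description of the letters and not a measured binding site. In 6 of the 17 genes, 1 match each to the NRF1 motif is shown in capitals with its surroundings, picked to show each base at the free position. The fixed letters are alike because the search required them, and a match on the other strand reads as the reverse complement.
Atp5g2, chr15:102671065-102671104, minus strand: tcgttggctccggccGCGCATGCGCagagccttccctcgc
Cox6a1, chr5:115349096-115349135, minus strand: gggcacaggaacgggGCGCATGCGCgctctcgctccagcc
Ndufa8, chr2:36049344-36049383, minus strand: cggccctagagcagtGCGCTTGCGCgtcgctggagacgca
Ndufb4, chr16:37654535-37654574, minus strand: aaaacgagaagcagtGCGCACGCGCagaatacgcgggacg
Sdha, chr13:74350314-74350353, minus strand: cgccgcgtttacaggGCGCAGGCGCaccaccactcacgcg
Sdhd, chr9:50603904-50603943, minus strand: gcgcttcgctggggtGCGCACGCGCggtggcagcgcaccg
By fold change, defined above, the 17 genes with an NRF1 match had a median log2 fold change of -0.13, and the 48 without one had -0.0050. The 16 genes with CCGGAAG had -0.047 and the 49 without it had -0.051. The 7 genes with the YY1 letters had 0.19, and the 58 without them had -0.061. No difference between such groups was tested.

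As a group, the subunit genes were among the most abundant transcripts of both libraries and differed little between them. In the WT library 60 of the 78 genes past the filter lay at or above percentile 90 of all genes past the filter, and 75 lay above the median gene. Their summed value was 20198 FPKM in the WT library against 19696 FPKM in the KO-labelled library, or 3.55% and 3.43% of all deposited values. Across the 78 genes the log2 levels of the libraries had a Pearson correlation of 0.95 and a Spearman correlation of 0.98, a description over genes that share the same libraries. The levels ran from 3.53 to 1236 FPKM in WT, a range that by itself makes such correlations high. Past the 2-fold limit, 0 of the 78 genes were higher in the KO-labelled library, where 2.84% of all 10542 genes past the filter were, and 2 were lower, where 3.43% were. Among the 6714 genes averaging 10 FPKM or more, these shares were 1.27% and 2.38%, and 51.1% lay above and 48.9% below their WT value. The median log2 fold change was -0.045, against 0.0061 for all genes. There were 33 higher genes (42.3%, with 50.7% of all genes higher) and 45 lower ones, where 49.3% of all genes were lower. Beyond 0.5 on the log2 scale, up or down, were 4 genes (5.13%), against 19.1% of all genes and 14.4% of those averaging 10 FPKM or more. The interquartile range of these differences was 0.37 for the subunit genes, 0.44 for all genes and 0.39 for those averaging 10 FPKM or more.

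**Figure D1:**
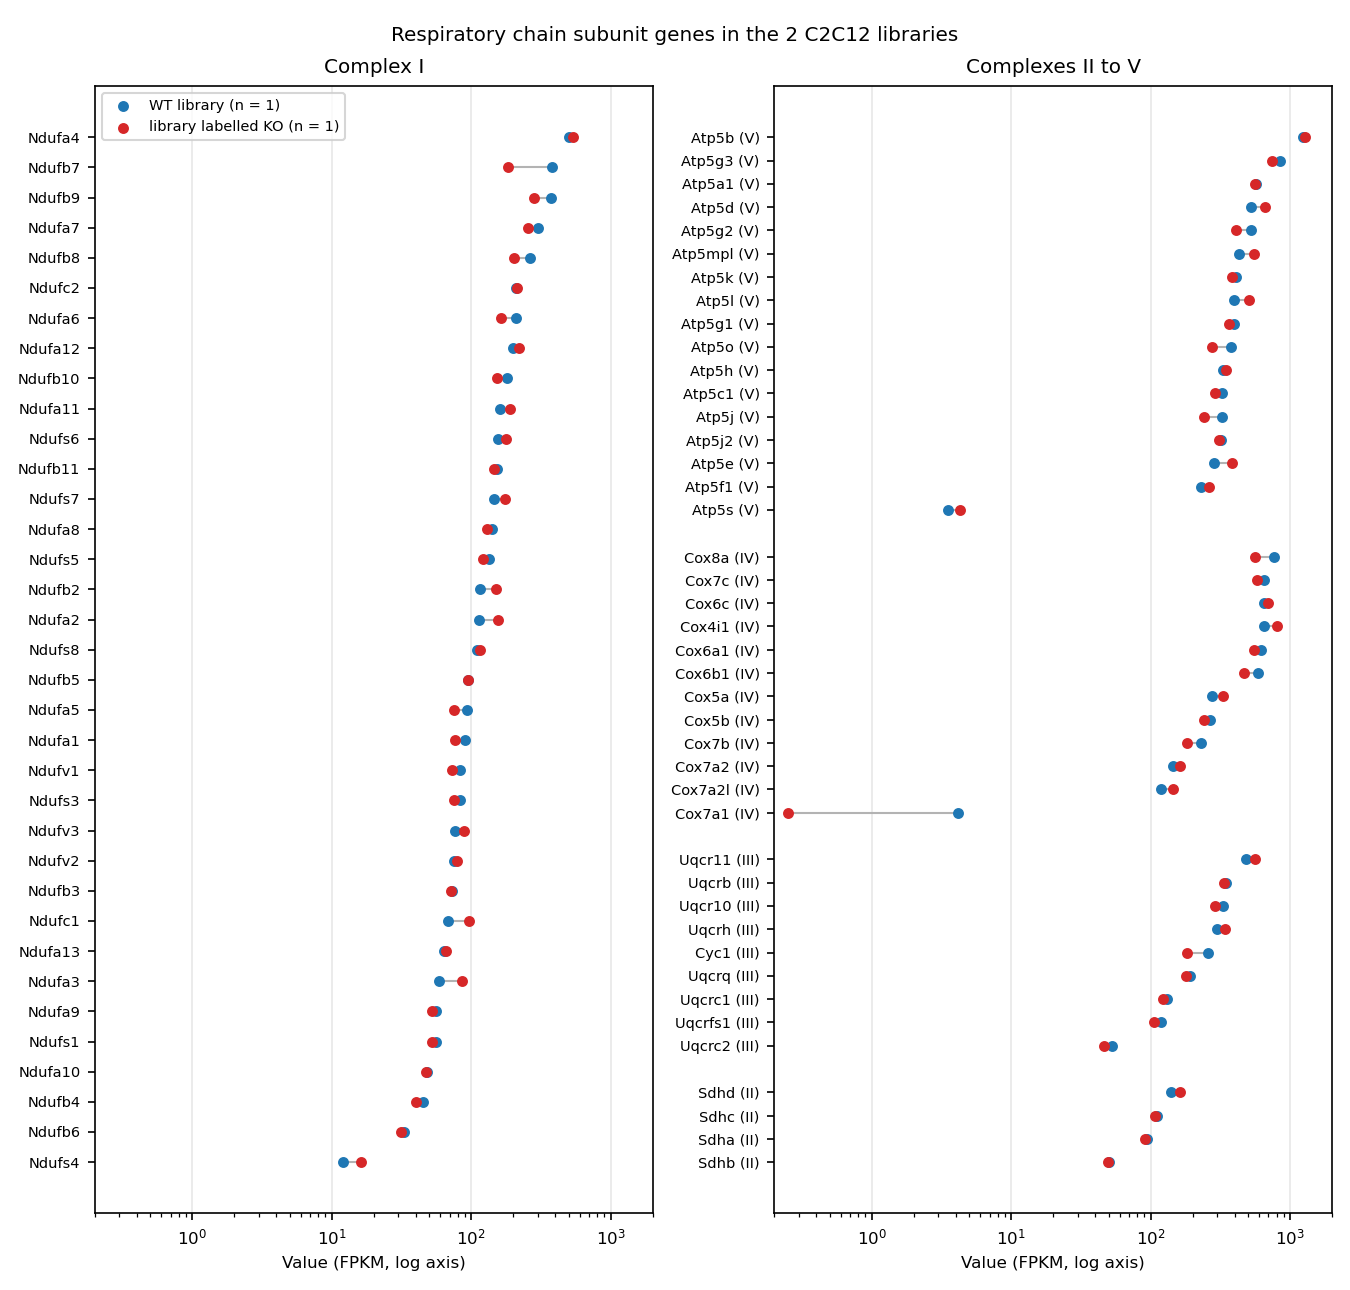
Values of 77 of the 78 subunit genes past the filter in the WT library (blue) and in the KO-labelled library (red), in FPKM on a log axis, with 1 library per line and genes ordered by WT value within each complex. The points of most genes nearly coincide, and the wide gaps are those of Ndufb7 (379 and 183 FPKM) and Cox7a1 (4.14 and 0.25 FPKM).

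**Figure D2:**
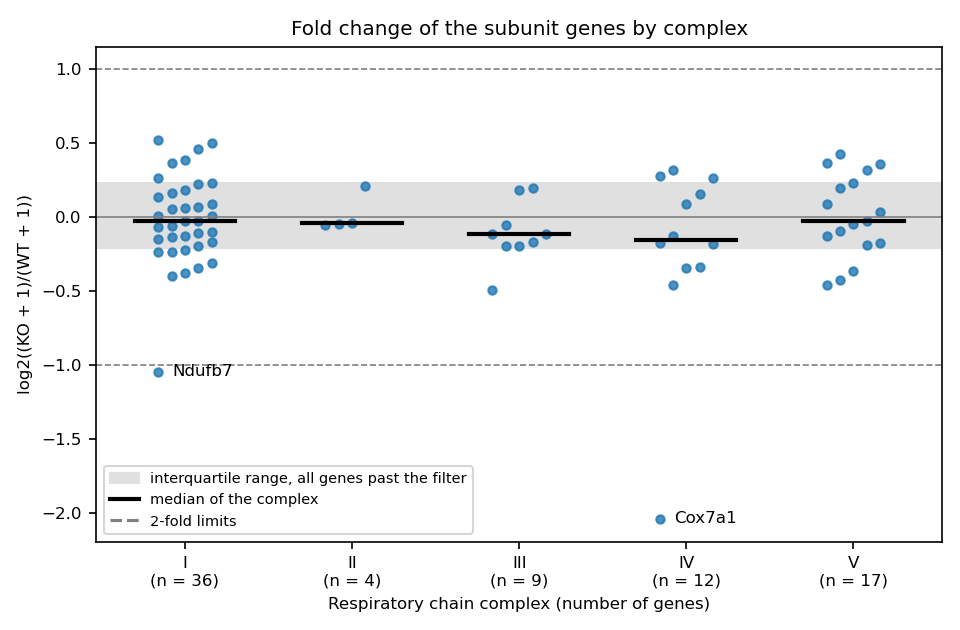
Log2 fold change, KO-labelled library against WT, of each subunit gene past the filter (points) by complex, with the median of each complex (bars), the interquartile range of all 10542 genes (grey band) and the 2-fold limits (dashed lines). Every complex median lies inside the band, and 2 genes, Ndufb7 and Cox7a1, lie beyond a limit.

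Complex I oxidises NADH and is the largest of the complexes. Its 36 genes past the filter had a median log2 fold change of -0.025, with 17 higher and 19 lower. The 7 nuclear core genes, which encode the flavin and iron–sulfur subunits, lay between 56.02 FPKM (Ndufs1) and 145 FPKM (Ndufs7) in the WT library. Among them, 4 were higher and 3 lower in the KO-labelled library, between -0.19 and 0.27 on the log2 scale. Ndufv1, which carries the flavin that accepts electrons from NADH, went from 83.1 to 72.7 FPKM. Ndufs1, with several iron–sulfur clusters, was 56.02 and 52.2 FPKM.

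The accessory subunits surround the core. The 9 genes of the matrix arm had 5 higher and 4 lower members, and the 9 of the proximal membrane arm also had 5 and 4. The 2 highest log2 fold changes among all subunit genes were those of Ndufa3, 59.2 FPKM in WT against 85.4 FPKM in the KO-labelled library (0.52), and Ndufc1, 68.02 and 96.7 FPKM (0.50). Ndufa2, a matrix arm subunit, followed with 113 and 156 FPKM (0.46). Ndufs4, an accessory subunit whose loss causes Leigh-like disease, had the lowest WT level of complex I genes past the filter and was 12.1 and 16.2 FPKM. Of the 10 Ndufb genes of the distal membrane arm, 8 were lower and 2 higher (Ndufb2 and Ndufb5), where 49.3% of all genes were lower. Among the 8, Ndufb3, Ndufb6 and Ndufb11 differed little, at -0.026, -0.057 and -0.065. Ndufb7 and Ndufb9 lie among lowered neighbours, with medians of -1.43 and -0.28 as described with chromosomal position. The summed value of the 10 genes was 1710.1 FPKM in WT against 1357 FPKM in the KO-labelled library. Ndufb7, a small subunit on the intermembrane space side of this arm, held the largest part of that gap, having fallen from 379 to 183 FPKM (-1.05). Ndufb9 went from 372 to 282 FPKM (-0.40) and Ndufb8 from 264 to 203 FPKM (-0.37). Ndufb2 went the other way, from 116 to 150.5 FPKM (0.37).

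Complex II, succinate dehydrogenase, also belongs to the citric acid cycle and is encoded in the nucleus alone. Sdha, the flavoprotein, was 94.6 FPKM in WT against 91.2 FPKM in the KO-labelled library, and Sdhb, the iron–sulfur subunit, was 50.7 and 49.4 FPKM. The membrane anchors Sdhc and Sdhd were 111.0 and 108 FPKM, and 140.4 and 163 FPKM. On the log2 scale Sdha, Sdhb and Sdhc differed by -0.051, -0.037 and -0.042, and Sdhd by 0.21.

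Complex III passes electrons from ubiquinol to cytochrome c. Of its 9 genes 7 were lower and 2 higher, where 49.3% of all genes were lower and 50.7% higher. The median log2 fold change of the 9 was -0.11. Cyc1, cytochrome c1 and one of the catalytic subunits, was 259 FPKM in WT against 184 FPKM in the KO-labelled library (-0.49), the lowest of the complex. Uqcrfs1, the Rieske iron–sulfur protein, was 119 and 105 FPKM (-0.17). The higher genes were the small subunits Uqcrh, at 299 and 341 FPKM, and Uqcr11, at 485 and 557 FPKM.

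Complex IV, cytochrome c oxidase, reduces oxygen. Only 12 of its 18 genes passed the filter, since the other 6 encode tissue-restricted isoforms that were at or near 0. The median log2 fold change was -0.15, with 5 genes higher and 7 lower. Cox4i1, the widely used form of subunit 4, had the highest fold change of the complex, at 651 FPKM in WT against 812 FPKM in the KO-labelled library (0.32). Cox5a was 276 and 332 FPKM (0.27), and Cox7a2l, a factor of supercomplex assembly, was 118 and 144 FPKM (0.28). Cox8a, the widely used form of subunit 8, was 773 and 563 FPKM (-0.46). Cox6b1, which bridges the monomers of the enzyme, was 591 and 466 FPKM (-0.34), and Cox7b was 231 and 183 FPKM (-0.34). After subtraction of the neighbours' median, explained with chromosomal position, 3 genes of the complex were higher and 9 lower, and Cox4i1 and Cox5a stood at -0.033 and -0.049.

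The muscle and heart isoforms of complex IV were scarce in both libraries. Cox7a1, the muscle form of subunit 7a, was 4.14 FPKM in WT against 0.25 FPKM in the KO-labelled library, and at -2.04 on the log2 scale it had the lowest value of all subunit genes. It made up 2.78% of the summed Cox7a1 and Cox7a2 value in WT and 0.154% in the KO-labelled library, while Cox7a2 was 145 and 162 FPKM. Cox8b, the muscle form of subunit 8, was 0.552 FPKM in WT and listed at 0 in the KO-labelled library. Cox6a2, the muscle form of subunit 6a, was 0.073 and 0.168 FPKM beside 623 and 552 FPKM of its counterpart Cox6a1. The level of Cox7a1 in the KO-labelled library was close to the smallest steps of the data. Multiplied by transcript length in kilobases it was 0.11, where the commonest product among genes below 0.06 FPKM lay between 0.03 and 0.045 in both libraries. The fold change of Cox7a1 also depended on the pseudocount, with -3.60 at 0.1 and -0.80 at 5. In bulk libraries fewer cells that express a gene and less of its RNA per cell cannot be told apart.

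Markers of the myoblast line were set beside Cox7a1, and they did not all go the same way. Of 9 markers, 6 passed the filter. Past the 2-fold limit 4 of them fell, where 3.43% of all genes did, and 1 rose, where 2.84% did. The summed value of the 9 was 215 FPKM in WT against 39.3 FPKM in the KO-labelled library. Beside Myod1, given above, Des was 97.6 and 3.84 FPKM, and Myf5 was 9.14 and 20.3 FPKM. Pax7 was listed at 0 in both libraries. Their part in the difference of Cox7a1 was not tested. The 10 markers of blood, endothelial, epithelial and fat cells summed to 2.90 FPKM in WT against 1.41 FPKM in the KO-labelled library. Most of both sums was Cd68, at 2.85 and 1.06 FPKM, the only 1 of them past the filter. Ptprc, Cdh5 and Epcam were listed at 0 in both.

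Other isoforms restricted to certain tissues or conditions were equally scarce. Cox4i2, a lung form regulated by oxygen, was listed at 0 in WT and 0.168 FPKM in the KO-labelled library. Cox7b2 was listed at 0 and at 0.671 FPKM. Ndufa4l2, a relative of Ndufa4 that is induced by hypoxia, was 0.049 and 0.335 FPKM, while Ndufa4 was 502 and 535 FPKM. The testis forms Cox6b2 and Cox8c were listed at 0 in both libraries. These 5 genes, with Cox6a2 and Cox8b, are the 7 that did not pass the filter. Just above it were Cox7a1, with a mean of 2.19 FPKM, and Atp5s, with 3.93 FPKM, and the next gene, Ndufs4, had 14.1 FPKM. The plot of isoform levels sets these genes side by side.

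**Figure D3:**
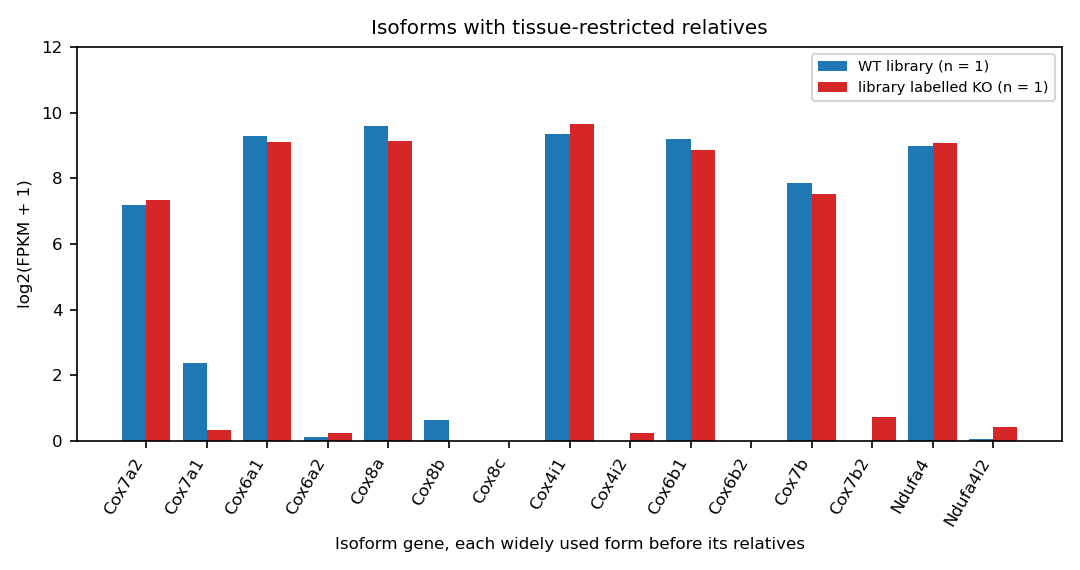
Levels of isoform genes as log2(FPKM + 1) in the WT library (blue bars) and the KO-labelled library (red bars), 1 library per line, with each widely used form placed before its tissue-restricted relatives. Every widely used form stands at more than 7 on this scale in both libraries, and Cox7a1 in WT is the highest of the restricted forms.

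ATP synthase had the most abundant subunit gene, Atp5b, the catalytic beta subunit, with 1236 FPKM in WT against 1270.0 FPKM in the KO-labelled library. Its 17 genes had 8 higher and 9 lower members, with a median of -0.024 on the log2 scale. In the F1 head and central stalk 3 of 5 genes were higher. Atp5e, the epsilon subunit of the stalk, was 283 and 381 FPKM (0.43), the highest fold change of the complex, and Atp5d, the delta subunit, was 529 and 661 FPKM (0.32). Atp5a1, the alpha subunit, was 571 and 562 FPKM.

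The 3 genes of the proton-carrying c ring, Atp5g1, Atp5g2 and Atp5g3, encode the same mature protein. All were lower, from 397 to 364, from 523 to 407 and from 850 to 748 FPKM, although Atp5g2 turned to 0.046 after subtraction of its neighbours' median, described below. Their sum was 1770 FPKM in WT against 1519 FPKM in the KO-labelled library, and the share of each gene in that sum moved little, with Atp5g3 at 48.01% and 49.3%. In the peripheral stalk, which holds the head in place, Atp5o was 376 and 274 FPKM (-0.46) and Atp5j was 325 and 242 FPKM (-0.42), while Atp5f1 was 228 and 262 FPKM and Atp5h 328 and 349 FPKM. The small membrane subunits Atp5l and Atp5mpl were 399 and 512 FPKM (0.36) and 431 and 556 FPKM (0.37), and Atp5k and Atp5j2 were 409 and 384 FPKM (-0.092) and 319 and 309 FPKM (-0.043).

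The differences followed chromosomal position in part. Because the libraries differed along whole stretches of chromosomes, each subunit gene was set beside the median log2 fold change of the other genes past the filter within 5 Mb of its start on GRCm39. This could be done for 77 of the 78 genes, all but Atp5mpl, which had no matched position. Across the 77 genes the fold change and the neighbours' median had a Pearson correlation of 0.54 and a Spearman correlation of 0.54, which became 0.46 and 0.52 without Ndufb7. For all 10347 genes with neighbours the Pearson correlation was 0.33, and for the 6627 of them averaging 10 FPKM or more it was 0.42. These are descriptions over genes that share libraries and, where they are close together, neighbours. Of the 20 subunit genes with a neighbours' median above 0.1, 14 were higher. Of the 14 with one below -0.1, 13 were lower, and the median log2 fold change was -0.35. Between these limits 17 genes were higher and 26 lower.

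**Figure D4:**
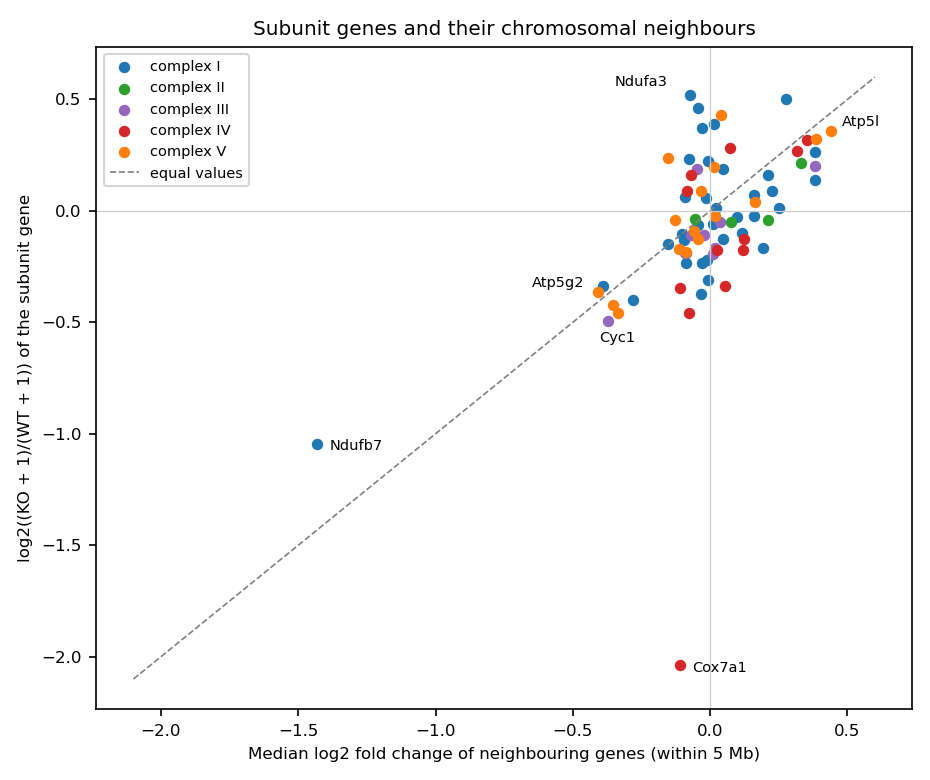
Log2 fold change of each of 77 subunit genes (vertical axis) against the median log2 fold change of the genes within 5 Mb of it (horizontal axis), coloured by complex, with a dashed line where both are equal. Ndufb7 lies far to the left, at a neighbours' median of -1.43, and Cox7a1 lies far below the line, at -2.04 with a neighbours' median of -0.11.

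Ndufb7 is the single subunit gene in a stretch of chromosome 8, from 79456724 to 96615190 on GRCm39. There 114 of 118 genes past the filter were lower in the KO-labelled library, where 49.3% of all genes were. Their median log2 fold change was -1.28. The borders of the stretch, Lsm6 and Got2, were chosen with earlier results of these data known, as a stretch of lowered genes. This count and median therefore describe how the stretch was drawn. The gene lies from 84293300 to 84298255. The 72 neighbours of Ndufb7 had a median of -1.43, so that Ndufb7, at -1.05, was lower than in WT but less so than its neighbours, and stood at 0.38 after subtraction. Cox4i1 lies on the same chromosome beyond the stretch, at 121391505, and its 0.32 sat beside a neighbours' median of 0.35.

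On some chromosomes the subunit genes lay on the same side of 0 as their neighbours, and on others they did not. On chromosome 10, Atp5d, Ndufs7 and Uqcr11 start between 79974466 and 80236542, and all 5 subunit genes of this chromosome were higher, where the median of all its genes was 0.30. The values of Atp5d, Ndufs7 and Uqcr11 were 0.32, 0.27 and 0.20, and their neighbours stood at 0.38. On chromosome 15, Cyc1, Ndufa6, Ndufb9 and Atp5g2 were lower, at -0.49, -0.34, -0.40 and -0.36, beside neighbours at -0.37, -0.39, -0.28 and -0.41, while Cox6c was at 0.090 beside -0.083. On chromosome 16, Atp5j and Atp5o were at -0.42 and -0.46 beside -0.35 and -0.34, while Ndufb4 was at -0.17 beside 0.19. On chromosome 9, Atp5l, Cox5a and Sdhd were at 0.36, 0.27 and 0.21 beside 0.44, 0.32 and 0.33, while Cox7a2 was at 0.16 and Uqcrc1 at -0.11 beside -0.068 and -0.069. On chromosome 1, 5 of 6 subunit genes were lower, with a median of -0.034, where the median of all its genes was 0.12. The sign turned after subtraction for 21 of the 77 genes, and for 11 of them the neighbours' median was beyond 0.3: Atp5d, Atp5g2, Atp5l, Cox4i1, Cox5a, Ndufa12, Ndufa6, Ndufb7, Ndufs7, Sdhd and Uqcr11.

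Other genes kept their distance from their neighbours. Ndufa3, on chromosome 7, was at 0.52 beside -0.074, Ndufa2 at 0.46 beside -0.045, Ndufb2 at 0.37 beside -0.031 and Atp5e at 0.43 beside 0.041. Cox8a, on chromosome 19, was at -0.46 beside -0.076, Ndufb8, also on chromosome 19, at -0.37 beside -0.034, and Cox7b, on the X chromosome, at -0.34 beside 0.053. After subtraction the interquartile range of the 77 genes went from 0.37 to 0.26, and 25 genes were higher and 52 lower, with a median of -0.080. The distal arm of complex I again had 8 of 10 genes lower, with Ndufb2 and Ndufb7 higher. The numbers for the core of complex I went from 4 higher of 7 to 2 of 7, and those for the F1 part of ATP synthase from 3 of 5 to 1 of 5.

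The transcripts of the subunit genes were short, with a median of 1101 bases against 3492 bases for all genes past the filter, and 46.8% were below 1 kb. Their fold change had a Spearman correlation of 0.13 with transcript length and of -0.17 with GC content over 77 genes. Of the 85 genes, 8 have a pseudogene named after them in the RefSeq table (Atp5c1, Atp5k, Atp5l, Cox5b, Cox7c, Ndufa12, Ndufs5 and Uqcrh), and their reads can be shared with these copies, so their values are less certain.

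Genes that work with the subunits were described in the same way. The acyl carrier subunit Ndufab1, which the symbol rule does not take, was 59.1 FPKM in WT against 57.3 FPKM in the KO-labelled library, and cytochrome c, Cycs, was 59.5 and 59.99 FPKM. Usmg5, a small ATP synthase subunit with another symbol, was 520.02 and 640.04 FPKM. None of the 13 subunits encoded by mitochondrial DNA was among the gene symbols analysed. Of 48 assembly factors 46 passed the filter, with 20 higher and 26 lower. Past the 2-fold limit 0 rose, where 2.84% of all genes did, and 1 fell, where 3.43% did. That gene was Coa3, which helps to build the first subunit of cytochrome c oxidase, at 38.4 and 17.8 FPKM (-1.07), beside neighbours at -0.055. Pet117 and Ndufaf3 had the highest fold changes of these factors, 0.81 from 3.59 to 7.04 FPKM and 0.76 from 5.91 to 10.7 FPKM.

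Among 15 nuclear regulators, 12 passed the filter, and 6 were higher and 6 lower, with a median of 0.020. More than 2-fold apart were 0, where 2.84% of all genes were higher and 3.43% lower past that limit. Nrf1 was 17.4 FPKM in WT against 19.6 FPKM in the KO-labelled library. Gabpa, the DNA-binding part of GABP, was 26.2 and 20.7 FPKM (-0.33) and lies on chromosome 16 beside neighbours at -0.42. That median equals the log2 fold change of Atp5j, a subunit gene of the same chromosome. Esrra, a nuclear receptor that acts on these genes, was 27.8 and 20.6 FPKM (-0.42), beside neighbours at -0.076. Tfam, which packages and transcribes mitochondrial DNA, was 24.3 and 26.3 FPKM (0.11). The coactivator Ppargc1a was below the filter, at 0.051 and 1.09 FPKM, and Ppargc1b was 3.00 and 1.94 FPKM. Esrrg and the muscle regulator Perm1 were listed at 0 in both libraries.

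Other large complexes were set beside the subunit genes, whose median was -0.045 and whose interquartile range was 0.37. Each of the 3 other groups had a narrower range. Mitochondrial ribosomal proteins, 78 genes past the filter, had a median log2 fold change of -0.014 and an interquartile range of 0.32. Proteasome subunits, 35 genes, had -0.072 and 0.19, and cytosolic ribosomal proteins, 81 genes, had 0.087 and 0.30, with 53 higher and 28 lower. No test of these differences was possible with 1 library per line.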

How the data were processed

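RNA of WT and Gne-KO C2C12 cells was measured in 1 library each. Per the labels, Trim Galore 0.6.6, STAR 2.7.9a and RSEM 1.3.3 were used with GRCm38 listed as mouse build, whereas the study's methods name GRCm39 and differ from the labels on library kit, sequencer and STAR version. The authors deposited 1 value per gene symbol, with no unit named, taken here as FPKM because the column totals (568543 in WT and 574253 in KO) are not fixed and low values step with transcript length. TPM limited to these genes cannot be told apart from FPKM and would scale each library by 1 factor. Without a known depth, counting intervals could not be given. Of 21853 rows, 24 repeated a symbol, among them 1 of Atp5o (0.23 and 0 FPKM), and the row of larger mean was used.

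No count model or test was used. Fold changes used a pseudocount of 1 and a mean of at least 1. Genes were named by a rule: members more than 2-fold apart, the extremes of each complex, the 5 most abundant, isoform pairs, members of the chromosome 8 stretch, members whose sign turned with their neighbours, regulators and members below the filter. Any other gene is named with its value already known. The values of 1 member are not reported here by name, although it is part of the counts and medians. The members and lists were chosen with earlier results of these data known.

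Positions, length and GC content of canonical transcripts came from GENCODE vM39 on GRCm39, by current or older symbol, for 10364 of 10542 genes past the filter and 84 of 85 members. Promoters came from RefSeq on GRCm38.p6. Scaling, pseudocount, filter, repeated rows, neighbours, GC content and length (lowess, span 0.3), the chromosome 8 stretch and membership were varied. The procedure was tested on simulated data. Computation used pandas 2.3.3 and numpy 2.4.6 in Python 3.11.15, with statsmodels 0.14.6 and matplotlib 3.10.9.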

Additional observations from a re-analysis of the deposited data

How the results depend on the processing

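No paired analysis was possible because each line has a single library and nothing was tested, which also leaves no replicate to omit. The count of 2 subunit genes more than 2-fold lower became 1 with a pseudocount of 5 and with the filter raised to 5 FPKM, where Cox7a1 left it, and 1 after subtraction of the neighbours' median and without the chromosome 8 stretch, where Ndufb7 left it. Ndufb7 turned from -1.05 to 0.38 after that subtraction. The median of complex II, -0.040, became -0.052 with scaling by the median of ratios (factor 1.01) and -0.12 after subtraction of the neighbours' median, and rests on 4 genes. Over the alternatives the median of complex I ranged from -0.059 to -0.023, of complex III from -0.18 (GC content and length) to -0.10, of complex IV from -0.22 (neighbours) to 0 (no filter), and of complex V from -0.050 (neighbours) to -0.0094 (GC content and length), so that the sizes of these medians depend on the processing. No subunit gene was more than 2-fold higher under any of these alternatives. Of 27 subunit genes followed through every alternative, 14 changed sign under at least 1. This share does not describe all subunit genes, because a turn of sign with the neighbours was itself a rule for following a gene, which 11 met. Over all 77 genes with neighbours, 21 turned after subtraction. Beside the 11 that turned with their neighbours' median beyond 0.3, the followed genes that changed sign were Atp5b, Ndufa4 and Cox6c. Atp5b went from 0.040 to -0.12 with neighbours subtracted. Ndufa4 went from 0.091 to -0.13 with neighbours subtracted and to -0.027 with GC content and length. Cox6c turned only with GC content and length, from 0.090 to -0.018.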

Other observations

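Enzymes of the citric acid cycle outside complex II, which feed electrons to the respiratory chain, had a lower median than the subunit genes. All 13 passed the filter, and 4 were higher and 9 lower, where 50.7% of all genes were higher and 49.3% lower. More than 2-fold apart were 0, where 2.84% of all genes were higher and 3.43% lower past that limit. The median of the 13 on the log2 scale was -0.16. With subtraction of the neighbours' median 3 were higher and 10 lower, with a median of -0.16. Idh3b, a subunit of the NAD-dependent isocitrate dehydrogenase, was 85.99 FPKM in WT against 61.6 FPKM in the KO-labelled library (-0.48), and Idh3g was 71.7 and 55.5 FPKM (-0.36). Mdh2, mitochondrial malate dehydrogenase, was 471 and 366 FPKM (-0.36). Cs, citrate synthase, was 221 and 259 FPKM (0.23), and the succinyl-CoA ligase subunit Suclg2 was 28.1 and 35.5 FPKM (0.33). These genes were named after their values were seen.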
